A study of Mus musculus with 18 samples.

Results

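The Dishevelled genes *Dvl1*, *Dvl2* and *Dvl3*, the formin genes *Daam1* and *Daam2*, and the planar cell polarity (PCP) effector genes *Intu*, *Fuz* and *Wdpcp* were examined in embryonic mouse lungs. They were chosen by symbol, as 8 of the 23420 rows in each of the 3 deposited tables. Bulk RNA-Seq libraries were made from lungs in 3 experiments, each with 3 control and 3 mutant libraries. In the *Vangl1/2* experiment at E12.5, Vangl1-/- controls were compared with Vangl1-/-; Vangl2-/- mutants, so the *Vangl1* allele, a gene trap, was shared by both groups, and the *Vangl2* null came from a floxed allele recombined by a Cre that is active throughout the embryo. In the Dermo1-Cre experiment at E12.5, Wnt5af/+; Dermo1Cre controls were compared with Wnt5af/f; Dermo1Cre mutants, with a Cre driven in the mesenchyme. In the Sox9-Cre experiment at E13.5, Wnt5af/+; Sox9Cre controls were compared with Wnt5af/f; Sox9Cre mutants, with a Cre driven in the epithelium. The controls of these last experiments carried the Cre and 1 floxed *Wnt5a* allele. The number of embryos behind each library is not given in the sources used here, so the p-values measure the spread between these libraries.

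In PCP signaling, WNT5A binds ROR and Frizzled receptors, and the core proteins VANGL, CELSR, PRICKLE, Frizzled and Dishevelled take up opposite sides of a cell. Dishevelled proteins are cytoplasmic adaptors that also pass the canonical Wnt signal to beta-catenin. DAAM formins bind Dishevelled and assemble unbranched actin filaments. INTU, FUZ and WDPCP form the core of the CPLANE complex, which works downstream of the core proteins in some tissues and loads intraflagellar transport complex A at the base of the primary cilium.

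The upstream sequences of 4 members are shown because *Daam2* and *Dvl3* had the largest differences of the 8 genes in the *Vangl1/2* experiment, while *Dvl2* is the Dishevelled gene and *Daam1* the formin gene to set beside them. They come from the RefSeq promoter table (GRCm38.p6), which matched all 8 members, and they run 5′ to 3′ on the gene's strand from 250 bases before the RefSeq start. Bases inside the GENCODE model were left out, 6 for *Daam2* and 4 for *Dvl3*. Capitals mark exact matches, on either strand, to TGACGTCA (the cyclic AMP response element), CACGTG (an E box), GGGCGG (a GC box) and CTTTGA (the core of the TCF/LEF motif).
Daam2, chr17:49564344-49564587, minus strand: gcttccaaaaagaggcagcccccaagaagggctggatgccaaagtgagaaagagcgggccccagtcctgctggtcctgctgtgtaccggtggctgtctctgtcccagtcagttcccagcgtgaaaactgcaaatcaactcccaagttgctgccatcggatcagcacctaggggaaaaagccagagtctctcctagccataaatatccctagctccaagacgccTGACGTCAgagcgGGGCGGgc
Daam1, chr12:71830818-71831067, plus strand: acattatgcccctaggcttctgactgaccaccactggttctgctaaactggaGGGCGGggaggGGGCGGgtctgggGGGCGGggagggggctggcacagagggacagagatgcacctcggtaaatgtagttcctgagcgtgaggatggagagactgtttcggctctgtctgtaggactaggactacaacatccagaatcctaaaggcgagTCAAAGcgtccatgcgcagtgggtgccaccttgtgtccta
Dvl3, chr16:20516736-20516981, plus strand: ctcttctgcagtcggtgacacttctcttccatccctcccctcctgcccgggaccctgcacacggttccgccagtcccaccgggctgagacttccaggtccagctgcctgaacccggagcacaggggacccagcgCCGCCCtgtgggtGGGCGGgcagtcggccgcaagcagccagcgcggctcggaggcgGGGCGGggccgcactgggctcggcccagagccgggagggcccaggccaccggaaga
Dvl2, chr11:70000342-70000591, plus strand: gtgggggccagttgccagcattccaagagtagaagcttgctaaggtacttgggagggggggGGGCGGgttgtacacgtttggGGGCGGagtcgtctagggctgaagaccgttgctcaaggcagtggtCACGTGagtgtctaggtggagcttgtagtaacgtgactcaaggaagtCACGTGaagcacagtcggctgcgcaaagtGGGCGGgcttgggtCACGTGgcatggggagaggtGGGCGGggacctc
*Daam2* was the member with a TGACGTCA match, which 1.55% of the 32851 windows in the table held. *Dvl2* had 3 CACGTG matches, against a share of 6.02% of windows with any. GC boxes, found in 32.7% of windows, were matched in *Dvl1* (5 matches), *Dvl2* (4), *Dvl3* (3), *Daam1* (3 in 1 of its 2 windows), *Daam2* (2 overlapping in each window, of which the second runs past the printed end) and *Wdpcp* (1), and not in *Intu* or *Fuz*. CTTTGA was matched in *Daam1* and *Wdpcp* and in 13.8% of all windows. The Dishevelled windows were rich in G and C, at 71.2% for *Dvl1*, 60.8% for *Dvl2* and 72.8% for *Dvl3*, beside a median of 52.4% over all windows. The *Daam2* windows held 60.8% and 58.4%, the *Daam1* windows 58.0% and 52.8%, *Wdpcp* 56.4%, *Intu* 49.6% and *Fuz* 44.8%. These matches are letters in a window and no binding was measured.

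The libraries held 15945393 to 19814346 reads on genes, and all 8 members passed the filter in every table (3 or more of the 6 libraries with a normalized count of 10 or above). *Vangl2*, the gene removed in the *Vangl1/2* mutants, had 277, 406 and 334 normalized counts in the controls and 86.5, 79.8 and 89.6 in the mutants, and it fell (log2 fold change -1.96 ± 0.17 SE, limma adjusted p = 0.032). *Wnt5a* had 472, 430 and 489 normalized counts in the Dermo1-Cre controls and 317, 436 and 230 in the mutants, so mutant replicate 2 lay within the controls (log2 fold change -0.55, adjusted p = 0.41). In the Sox9-Cre experiment *Wnt5a* read 473, 453 and 426 in the controls and 442, 362 and 448 in the mutants (log2 fold change -0.12, adjusted p = 0.9999). Counts over a whole gene do not show whether a floxed exon is gone, and they also include the tissue layer the Cre spares. All 6 epithelial and all 6 mesenchymal marker genes were detected in every group.

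The libraries of the *Vangl1/2* controls stood apart from each other, and this touches each result of that experiment. Their scores on the leading axis of a principal component analysis (51.7% of the variance) were -30.1 for replicate 1, -44.7 for replicate 3 and 17.0 for replicate 2, and the mutants scored 15.1 to 21.5. Deviations of genes from their mean over the 6 libraries followed transcript length, with a Spearman correlation across 13437 genes of -0.67 in control 1, -0.63 in control 3 and 0.38 in control 2, against 0.48 to 0.61 in the mutants. Genes within a library are not independent, and these values are descriptions. *Vangl2* in control 2 was the highest of the 6 libraries. Why control 2 lay near the mutants on the leading axis was not tested. The summed mesenchymal markers also set controls 1 and 3 apart. They read 27650 and 19210 normalized counts in controls 1 and 3, 48388 in control 2 and 35238 to 47050 in the mutants. Of these 6 genes, 3 rose and 1 fell in the mutants (limma p under 0.05 before adjustment). The split was not particular to mesenchyme. Endothelial sums were 8856 and 8315 in controls 1 and 3, 10309 in control 2 and 9926 to 10788 in the mutants. Erythroid sums ran the opposite way, at 42446 and 39335, against 25203 in control 2 and 22965 to 31801 in the mutants. Epithelial and cardiomyocyte sums did not set controls 1 and 3 apart. The part of these markers in the results below was not tested.

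Among the 8 genes, *Daam2* had the highest level per kilobase of transcript in all 6 groups (the level is normalized counts divided by length). In the Dermo1-Cre controls its level was 885 ± 5.71 per kilobase (SD, n = 3), followed by *Dvl3* at 267 ± 10.01, *Daam1* at 228 ± 9.997, *Dvl2* at 216 ± 8.85, *Dvl1* at 204 ± 6.77, *Fuz* at 100.4 ± 8.62, *Wdpcp* at 66.3 ± 5.46 and *Intu* at 41.7 ± 3.004. The libraries of *Daam1* overlapped those of *Dvl2*, and those of *Dvl2* overlapped those of *Dvl1*, while the other neighbours did not overlap. The PCP effectors were thus the lowest of the set in each of the 6 groups on transcript length. The length used matters. The longest *Daam2* transcript has 3646 bases and its merged exons 9769. With merged exons, *Daam2* stayed first in each group, with libraries that overlapped those of *Dvl2* in *Vangl1/2* controls. In the Dermo1-Cre controls it stood at 330 ± 2.13 per kilobase, *Dvl2*, *Dvl3* and *Daam1* overlapped at 173, 166 and 165, and *Intu*, *Fuz* and *Wdpcp* overlapped at 35.9, 34.1 and 31.2.

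**Figure D1:**
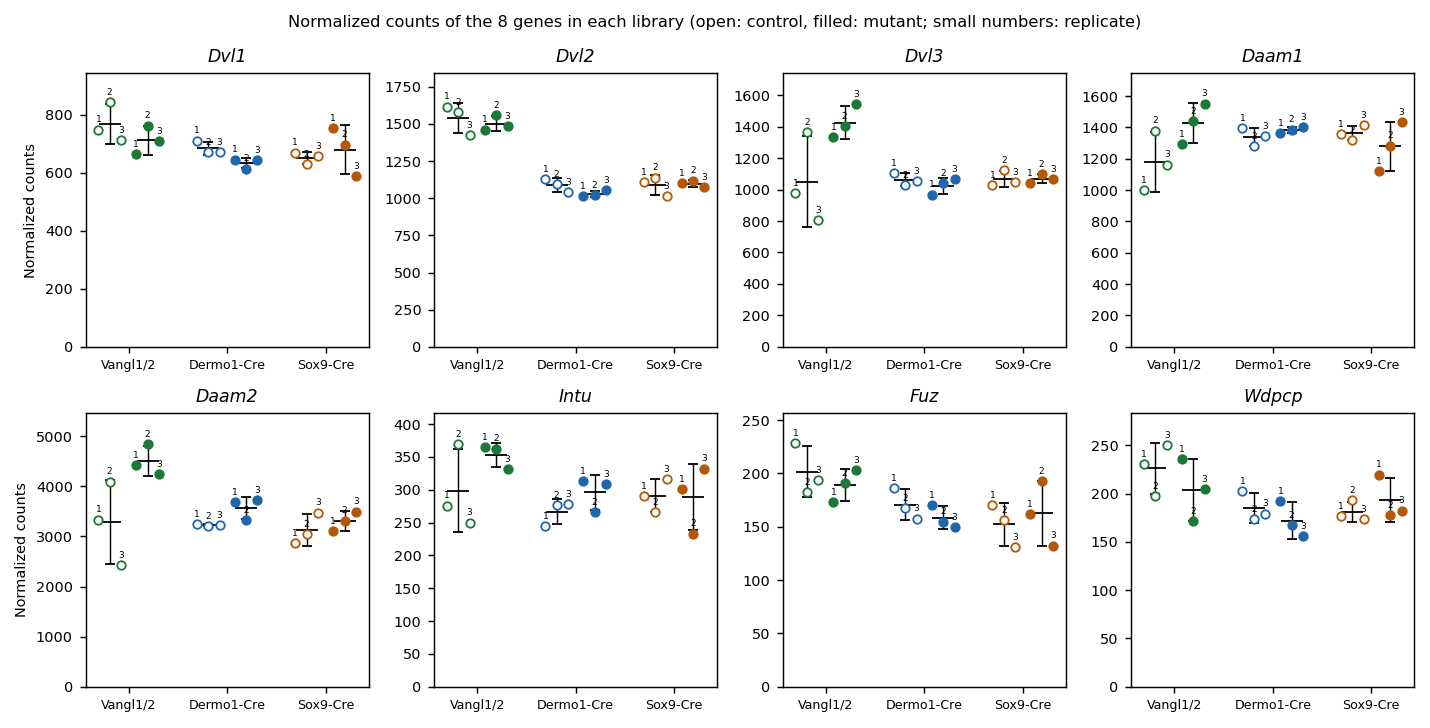
Normalized counts (vertical axes, from 0) of each gene in each library of the 3 experiments, with open points for controls, filled points for mutants, the replicate number above each point, and bars for the mean and SD of 3 libraries. *Dvl3*, *Daam2*, *Daam1* and *Intu* are lower in *Vangl1/2* control replicates 1 and 3 than in control replicate 2, while the groups of the Dermo1-Cre and Sox9-Cre experiments lie close together.

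None of the 8 genes passed the test in any experiment (limma on log2 of the normalized count plus 1, adjusted p under 0.05 over all genes tested). Of all genes, 0.00699% of 14303 passed in the *Vangl1/2* experiment, 0.014% of 14277 in the Dermo1-Cre experiment and 0% of 14293 in the Sox9-Cre experiment. edgeR and DESeq2, run on the reads recovered from the normalized counts, also called 0 of the 8 in each. At an unadjusted p under 0.05, 2 of the 8 were higher and 0 lower in *Vangl1/2* mutants, where 12% of all genes were higher and 8.56% lower. In Dermo1-Cre mutants 1 was higher and 0 lower (5.42% and 4.76% of all genes), and in Sox9-Cre mutants there were 0 (1.08% and 2.81%). The median log2 fold change of the 8 was 0.11, -0.07 and 0.03 in the order of these experiments, beside -0.01, 0.00 and 0.00 over all genes. The *Vangl1/2* median was 0.19 without control replicate 2, 0.033 without control replicate 3, -0.022 with the trend on transcript length removed and -0.016 with that on merged exon length removed.

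**Figure D2:**
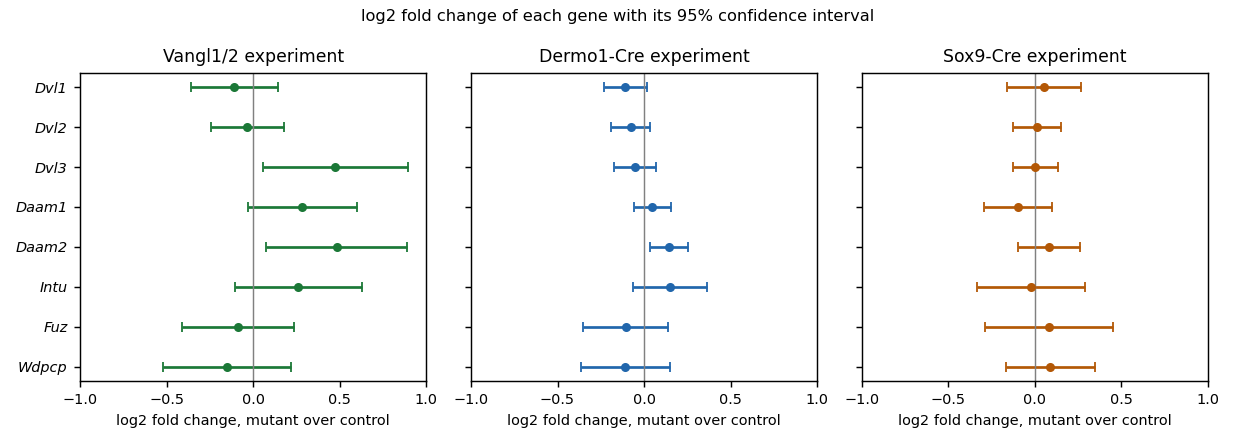
log2 fold change of mutant over control (horizontal axes) for each gene, with 1 panel for each experiment, points for the limma estimate from 3 control and 3 mutant libraries, and bars for the 95% confidence interval before adjustment. *Dvl3* and *Daam2* lie above 0 in the *Vangl1/2* experiment with intervals of 0.06 to 0.89 and 0.08 to 0.89, and *Daam2* lies above 0 in the Dermo1-Cre experiment with an interval of 0.04 to 0.26.

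Of the Dishevelled genes, *Dvl3* had the largest difference between *Vangl1/2* mutants and controls. Its normalized counts were 978, 1368 and 804 in the controls and 1335, 1402 and 1543 in the mutants. Controls 1 and 3 were below every mutant, and control 2 was above mutant 1. The log2 fold change was 0.47 ± 0.18 (SE, adjusted p = 0.23), which did not pass. *Dvl1* had 749, 844 and 713 normalized counts in the controls and 663, 763 and 710 in the mutants, with overlapping groups (log2 fold change -0.11 ± 0.11, adjusted p = 0.55). *Dvl2* had 1617, 1579 and 1424 in the controls and 1461, 1557 and 1488 in the mutants, also overlapping, and the 95% interval of its log2 fold change ran from -0.24 to 0.18.

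In the Dermo1-Cre experiment the 3 Dishevelled genes were all slightly lower on average in the mutants. *Dvl1* had 710, 671 and 671 normalized counts in the controls and 645, 614 and 644 in the mutants, so every mutant lay below every control, as for 7.92% of all genes. Its log2 fold change was -0.11 ± 0.06 (adjusted p = 0.53) and did not pass. Epithelial markers were lower beside it, with a summed level of 11042 to 12085 normalized counts in the controls and 10314 to 10486 in the mutants and 5 of the 6 genes lower at an unadjusted p under 0.05, and their part was not tested. *Dvl2* (1128, 1097 and 1040 against 1016, 1022 and 1054) and *Dvl3* (1107, 1029 and 1056 against 968, 1043 and 1065) had overlapping groups, with log2 fold changes of -0.08 and -0.05. In the Sox9-Cre experiment the groups of all 3 overlapped. The log2 fold changes there were 0.05 for *Dvl1*, 0.01 for *Dvl2* and 0.00 for *Dvl3*, and the 95% interval for *Dvl3* ran from -0.13 to 0.13.

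The make-up of the Dishevelled family can be read within a library, where the scaling between libraries cancels. The length trend of a library need not cancel, since the longest transcripts of *Dvl1*, *Dvl2* and *Dvl3* have 3358, 5037 and 3983 bases. Per kilobase of transcript, *Dvl3* made up 31.1%, 37.8% and 29.0% of the summed Dishevelled level in *Vangl1/2* controls 1 to 3 and 40.7%, 39.6% and 43.3% in the mutants. All 3 mutants were above all 3 controls. In the Dermo1-Cre and Sox9-Cre experiments the *Dvl3* share was 38.9% ± 0.65 and 39.5% ± 1.25 in the controls and 39.5% ± 1.21 and 39.0% ± 1.87 in the mutants (SD, n = 3). *Vangl1/2* controls 1 and 3 thus had the lowest *Dvl3* shares of the 18 libraries. The differences were 8.61 percentage points in the *Vangl1/2* experiment, and 6.78 to 11.2 when any 1 library was left out, against 0.65 and -0.48 points in the others. The share of *Dvl2* was 38.6% ± 3.53 in *Vangl1/2* controls and 34.4% ± 1.17 in the mutants, and that of *Dvl1* was 28.8% ± 1.47 and 24.4% ± 1.02. With merged exons the *Dvl3* share was 28.8% ± 4.37 in *Vangl1/2* controls and 36.9% ± 1.82 in the mutants. In the Dermo1-Cre controls *Dvl2* (36.3%) was then above *Dvl3* (34.9%).

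**Figure D3:**
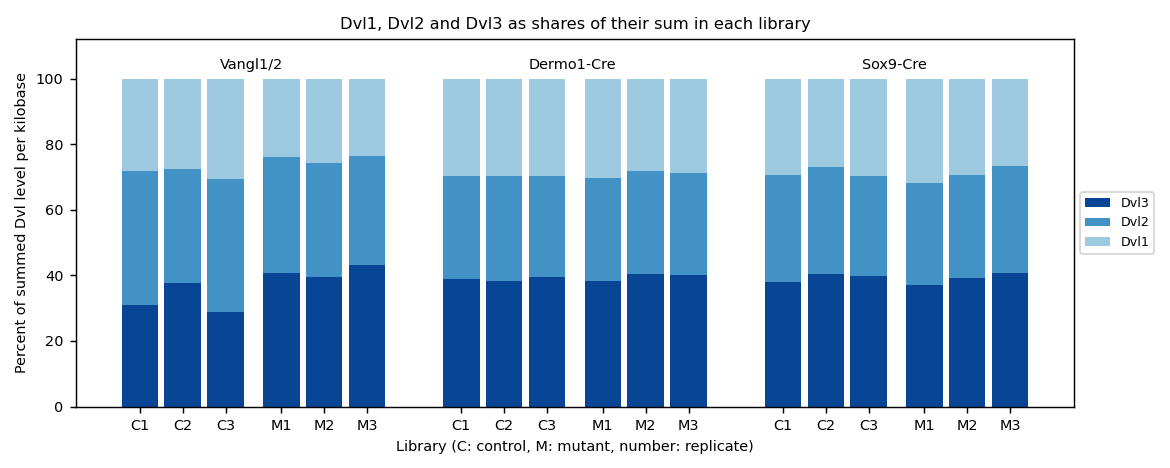
Share of *Dvl1*, *Dvl2* and *Dvl3* (percent, vertical axis from 0) in their summed level per kilobase of transcript, with 1 stacked bar for each of the 18 libraries. The *Dvl3* share is 31.1% and 29.0% in *Vangl1/2* controls 1 and 3 and between 37.1% and 43.3% in the other 16 libraries.

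The formin gene *Daam2* was higher in *Vangl1/2* mutants in every library. It had 3336, 4096 and 2435 normalized counts in the controls and 4426, 4843 and 4244 in the mutants, without overlap, as for 13.6% of all genes in that direction. The log2 fold change was 0.48 ± 0.18 (SE, adjusted p = 0.23) and did not pass. *Daam1* had 998, 1379 and 1162 in the controls and 1292, 1441 and 1552 in the mutants, with control 2 above mutant 1 (log2 fold change 0.28 ± 0.14, adjusted p = 0.26).

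*Daam2* was also the member with the lowest p in the Dermo1-Cre experiment. The controls read 3249, 3208 and 3222 normalized counts, a spread of 20.8 (SD), and the mutants 3679, 3319 and 3724. Every mutant was above every control, as for 7.65% of all genes, and mutant 2 was the lowest of the mutants. *Wnt5a* read 317, 436 and 230 normalized counts in mutants 1 to 3, and a link between *Wnt5a* and *Daam2* was not tested. The log2 fold change was 0.15 ± 0.05 (unadjusted p = 0.0146, adjusted p = 0.40 in limma), and it was 0.20 without mutant replicate 2 (adjusted p = 0.16), 0.12 without mutant replicate 1 (adjusted p = 0.72) and 0.12 without mutant replicate 3 (unadjusted p = 0.064, adjusted p = 0.60). With the length trend removed it was 0.15 on transcript length (limma adjusted p = 0.39) and 0.11 on merged exon length (adjusted p = 0.49). With no mean-variance trend in limma the unadjusted p was 0.052. Neuronal markers were also higher in the mutants as a group, with a summed level of 384 to 712 normalized counts in the controls and 897 to 2151 in the mutants. Of these genes, 6 of the 6 were higher at an unadjusted p under 0.05. Their sums were 897, 2015 and 2151 in mutants 1 to 3, where *Daam2* read 3679, 3319 and 3724. Summed mesenchymal markers ran from 36709 to 45119 in the controls and from 32522 to 37662 in the mutants. In that list 3 of the 6 genes were lower at an unadjusted p under 0.05. The log2 fold change was above 0 for 2 of the 6, with a median of -0.06. The part of either list in the *Daam2* and *Dvl1* values was not tested. In bulk lungs, a change in the number of cells of a type and a change in RNA per cell cannot be told apart. *Daam1* read 1396, 1279 and 1345 in the controls and 1364, 1385 and 1402 in the mutants, and the groups overlapped (log2 fold change 0.05).

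In the Sox9-Cre experiment *Daam2* had 2864, 3044 and 3477 normalized counts in the controls and 3110, 3316 and 3498 in the mutants, and *Daam1* had 1358, 1320 and 1415 against 1123, 1284 and 1435. Both overlapped, at log2 fold changes of 0.08 and -0.10. *Daam1* made up 21.4% ± 1.29 of the summed *Daam* level per kilobase in these controls and 19.3% ± 0.99 in the mutants. In the Dermo1-Cre experiment the share was 20.5% ± 0.61 and 19.4% ± 1.02, and in the *Vangl1/2* experiment 18.6% ± 3.77 and 16.5% ± 1.76. The mean *Daam1* share, mutant minus control, was thus -2.04, -1.07 and -2.12 percentage points in that order. In the *Vangl1/2* experiment it was 0.0024 points without control replicate 3. With merged exons the *Daam1* share of the Dermo1-Cre controls was 33.4% ± 0.84.

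Of the PCP effectors, *Intu* had 276, 370 and 250 normalized counts in *Vangl1/2* controls and 365, 363 and 332 in the mutants. Control 2 was the highest of the 6 libraries, and the log2 fold change was 0.26 ± 0.16 (adjusted p = 0.34). In Dermo1-Cre lungs *Intu* read 245, 277 and 278 in the controls and 314, 266 and 309 in the mutants (log2 fold change 0.15 ± 0.10, adjusted p = 0.62). In Sox9-Cre lungs the groups spanned 266 to 316 and 233 to 332.

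*Fuz* and *Wdpcp* were the least abundant in counts, with 129 to 221 and 156 to 238 recovered reads in a library. *Fuz* had 183 to 228 normalized counts in *Vangl1/2* controls and 173 to 203 in the mutants, with log2 fold changes of -0.09 in that experiment, -0.10 with Dermo1-Cre and 0.08 with Sox9-Cre. *Wdpcp* had 198 to 250 and 171 to 235, with log2 fold changes of -0.15, -0.11 and 0.09 in the same order. All 6 of these comparisons had overlapping groups, and the widest interval, for *Wdpcp* in the *Vangl1/2* experiment, ran from -0.52 to 0.22. Exons on the opposite strand of *Fuz*, from *Ap2a1* and D7Bwg0826e, cover 14.4% and 24.1% of its merged exons, and *Acadvl* exons cover 18.3% of those of *Dvl2*. Whether the counting used strand is not given in the sources used here, so reads of these neighbours cannot be told apart from those of *Fuz* and *Dvl2* where they overlap.

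The *Vangl1/2* results depended on which controls were used. Without control replicate 2, 4 of the 8 genes passed as higher in the mutants and 0 as lower, where 21.5% of all genes passed as higher and 21.7% as lower (6183 in all). These were *Dvl3* (log2 fold change 0.68, limma adjusted p = 0.00051), *Daam2* (0.66, adjusted p = 0.0015), *Daam1* (0.40, adjusted p = 0.0080) and *Intu* (0.42, adjusted p = 0.012). Without control replicates 1 and 3, a choice made after the data were seen that leaves 1 control assumed to vary like the mutants, 0 of the 8 passed (0.00699% of all genes) and the same genes had log2 fold changes of 0.06, 0.14, 0.05 and -0.07. With the spread estimated over all 18 libraries, *Dvl3* and *Daam2* passed as higher (limma adjusted p = 0.023 for each), beside 23.1% of all genes in either direction. That fit assumes the same spread in every group, and the *Vangl1/2* controls varied more. The SD of *Dvl3* was 289 normalized counts there, against 39.9 and 50.5 in the Dermo1-Cre and Sox9-Cre controls. The SE of *Dvl3* was thus 0.127 in place of 0.182, with the same fold change.

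CPM (recovered reads scaled to the library total on genes) sets the *Vangl1/2* controls beside the other experiments. Controls 1 and 3 lay below all other libraries for *Dvl3*, *Daam2*, *Daam1* and *Intu*. *Dvl3* stood at 49.6 and 39.7 CPM there, at 74.1 in control 2, and between 60.2 and 82.2 in the 15 libraries other than *Vangl1/2* controls. *Daam2* stood at 169 and 120 CPM in controls 1 and 3, at 222 in control 2, and between 177 and 255 in those 15 libraries. For *Dvl1*, *Dvl2*, *Fuz* and *Wdpcp*, controls 1 and 3 lay within the range of those 15 libraries. *Dvl2* in control 2 stood at 85.5 CPM, above their range of 62.6 to 82.1. The tables were normalized separately and the experiments differ in stage and genotype, so these levels are given side by side with no test.

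Fold changes in the *Vangl1/2* experiment rose with transcript length, with a Spearman correlation of 0.72 across 13437 genes, against 0.25 in the Dermo1-Cre and -0.04 in the Sox9-Cre experiment. With the length trend removed from each library, the log2 fold changes of *Dvl3* and *Daam2* were 0.40 and 0.45, that of *Daam1* was 0.01, that of *Intu* was -0.05 and that of *Dvl2* was -0.23, and none passed (0.00744% of all genes passed). Using merged exons for the length gave 0.36 for *Dvl3*, 0.23 for *Daam2*, and 0.10 for both *Daam1* and *Intu*. *Daam1* and *Intu* are the members with the longest transcripts, at 5879 and 6387 bases. With the transcript length trend removed and control replicate 2 left out, *Dvl3* (0.58, adjusted p = 0.0064) and *Daam2* (0.61, adjusted p = 0.013) passed as higher and *Dvl2* (-0.29, adjusted p = 0.035) as lower, beside 4.47% and 7.01% of all genes. With merged exons in that fit, *Dvl3* (0.52, adjusted p = 0.0040) passed and *Daam2* (0.31, adjusted p = 0.081) and *Dvl2* (-0.17, adjusted p = 0.13) did not, beside 12% of all genes higher and 15.9% lower. Merged exon lengths and the fits that combine both choices were added after the data were seen.

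**Figure D4:**
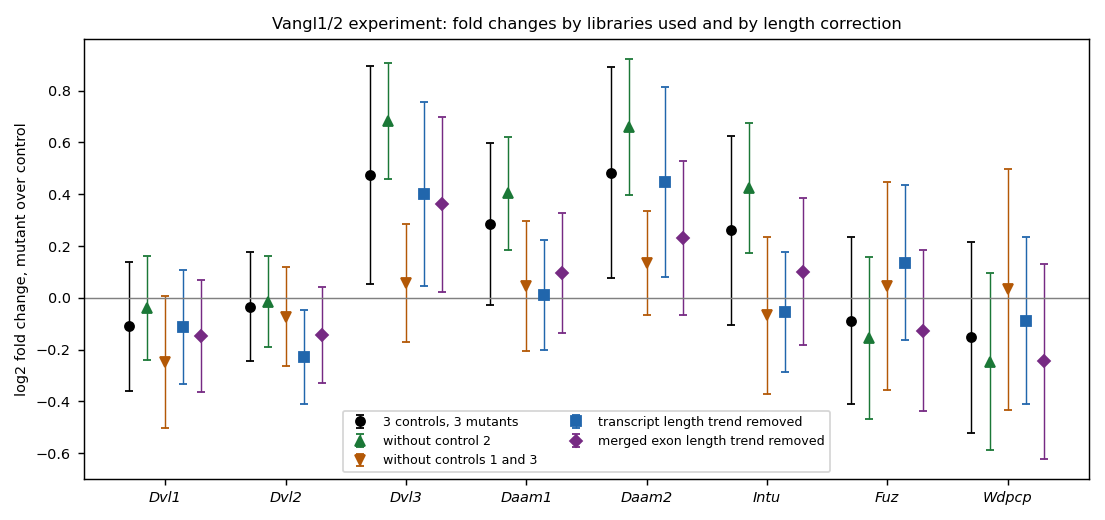
log2 fold change in the *Vangl1/2* experiment (vertical axis) for each gene, with 1 symbol for each choice of libraries or length correction and bars for the 95% confidence interval. *Dvl3* is 0.47 with all libraries, 0.68 without control 2, 0.06 without controls 1 and 3, and 0.40 with the transcript length trend removed.

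**Figure D5:**
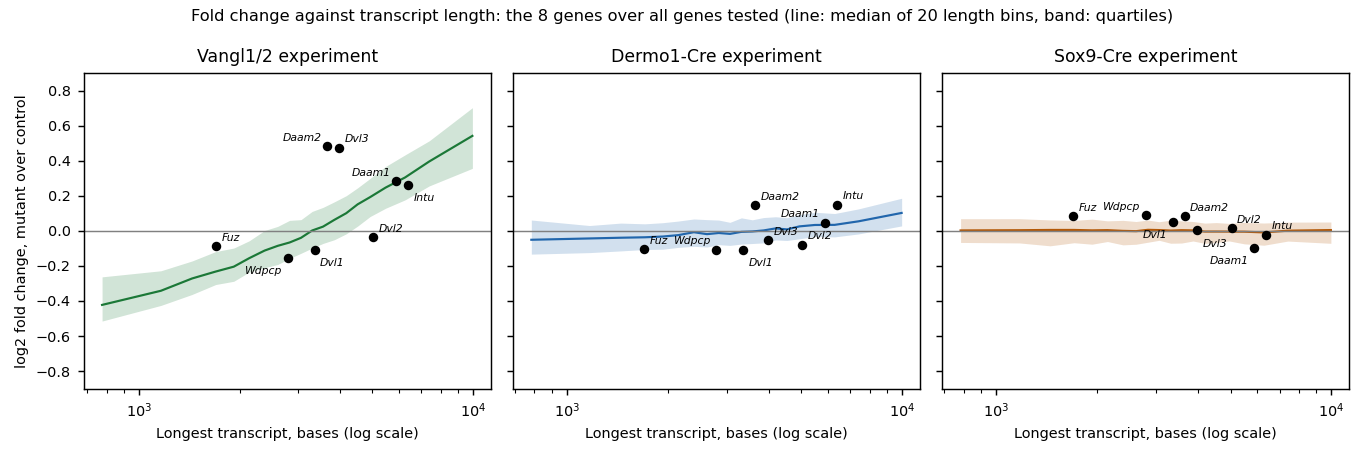
log2 fold change of mutant over control (vertical axes) against the length of the longest transcript (horizontal axes, log scale) in each experiment, with the line for the median and the band for the quartiles of all genes tested in 20 length bins, and points for the 8 genes. The line climbs with length in the *Vangl1/2* experiment, where *Dvl3* and *Daam2* lie above the line, and it is nearly flat in the Sox9-Cre experiment.

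Differences between the experiments in the size of the effect were tested over the 13980 genes that passed the filter in all tables. This fit used 1 spread per gene over all 18 libraries, which the groups did not share. The SE of *Dvl3* was 0.179 in every contrast, and 0.182, 0.055 and 0.057 within the *Vangl1/2*, Dermo1-Cre and Sox9-Cre experiments. For such genes the p-values of contrasts with *Vangl1/2* can be too low, and those of Dermo1-Cre minus Sox9-Cre too high. None of the 8 genes passed, where 0.0143% of genes passed for *Vangl1/2* minus Dermo1-Cre, 0.0143% for *Vangl1/2* minus Sox9-Cre and 0% for Dermo1-Cre minus Sox9-Cre, and edgeR and DESeq2 also called 0 of the 8. At an unadjusted p under 0.05 there were 1, 3 and 0 of the 8, all higher, where 9.59%, 13.2% and 2.02% of all genes were higher. For *Dvl3* the effect was larger in *Vangl1/2* mutants by 0.53 ± 0.18 on the log2 scale than in Dermo1-Cre mutants (adjusted p = 0.25) and by 0.47 ± 0.18 than in Sox9-Cre mutants (adjusted p = 0.16). For *Daam2* these differences were 0.34 and 0.40, and for *Daam1* 0.24 and 0.38, with adjusted p from 0.16 to 0.38. With the transcript length trend removed, those of *Daam1* were -0.0054 and 0.11 (unadjusted p = 0.29 for the latter), while those of *Dvl3* were 0.46 and 0.40 and those of *Daam2* 0.30 and 0.37. Without *Vangl1/2* control replicate 2, *Dvl3*, *Daam2* and *Daam1* passed as higher in both contrasts, beside 15.6% and 19.0% of all genes. For Dermo1-Cre minus Sox9-Cre, the differences of the 8 genes lay between -0.20 and 0.17.

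Around these genes, lists of other pathway members were read in the main fits only. No library was left out there and the length trend was not removed, so the limits of the *Vangl1/2* experiment given above apply to the lists too. Of 16 upstream PCP genes, 0 passed as higher and 1 as lower in *Vangl1/2* mutants, the targeted *Vangl2*, and 0 passed in the other experiments. None passed among 11 regulators of Dishevelled, 9 other formins (of 12 listed, the rest not found by symbol) and 8 CPLANE and intraflagellar transport complex A genes. At an unadjusted p under 0.05, the upstream genes were 6 higher and 1 lower in *Vangl1/2* mutants and the other 3 lists 3 higher and 1 lower, out of 28, where 12% of all genes were higher and 8.56% lower. The higher upstream genes included *Vangl1*, whose gene trap both groups carried. It read 162, 219 and 113 normalized counts in the controls and 239, 274 and 242 in the mutants (log2 fold change 0.65, limma adjusted p = 0.23). In Dermo1-Cre mutants the 4 lists held 2 higher and 6 lower of 44 (5.42% and 4.76% of all genes), and in Sox9-Cre mutants 0 higher and 1 lower (1.08% and 2.81%). The median log2 fold change in *Vangl1/2* mutants was 0.30 for the upstream genes, 0.19 for the other formins, 0.14 for the CPLANE list and 0.05 for the Dishevelled regulators.

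The gene with the lowest p of each list is named next, and as an extreme it does not stand for its list. In *Vangl1/2* mutants these were *Vangl2*, *Ccdc88c* (which encodes the Dishevelled-binding protein DAPLE), the formin gene *Fmn2* and *Cplane1*, listed in the table as 2410089E03Rik. *Ccdc88c* (0.27, adjusted p = 0.24) and *Fmn2* (0.94, adjusted p = 0.23) were higher in every mutant than in every control. *Cplane1*, the scaffold of the complex that INTU, FUZ and WDPCP share, read 734, 1237 and 707 in the controls and 1305, 1234 and 1363 in the mutants (log2 fold change 0.59, adjusted p = 0.23), and control 2 again lay with the mutants.

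In Dermo1-Cre mutants the lowest p values of the lists were those of *Celsr3*, *Dact3*, *Fhdc1* and *Wdr35*. *Celsr3*, a core PCP cadherin gene, had 15.03, 18.1 and 16.8 normalized counts in the controls and 25.2, 36.7 and 37.9 in the mutants (log2 fold change 0.94, adjusted p = 0.32). The summed neuronal markers of the same libraries were 418, 384 and 712 in the controls and 897, 2015 and 2151 in the mutants, and their part in the *Celsr3* values was not tested. The formin gene *Fhdc1* was lower, at 573, 490 and 543 against 381, 466 and 406 (log2 fold change -0.36, adjusted p = 0.27). The Dishevelled antagonist *Dact3* (-0.13, adjusted p = 0.49) was lower in every mutant, and *Wdr35* (0.14, adjusted p = 0.48) was higher in every mutant. In Sox9-Cre mutants the lowest were *Fzd6*, *Dact1*, *Inf2* and *Ift140*, each with an adjusted p = 0.9999. *Fzd6*, a PCP Frizzled receptor gene, had 321, 308 and 314 in the controls and 264, 269 and 268 in the mutants (log2 fold change -0.24).

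Patterns across the 18 libraries, after the mean of each group was taken away, were compared by Pearson's r over 13980 genes. The libraries differ in their length trend, most of all in the *Vangl1/2* experiment, and genes can be alike through it, so r is a description. The gene most like *Dvl3* was *Notch1* (r = 0.97), and r fell to 0.80 over the 15 libraries without the *Vangl1/2* controls. The gene most like *Daam1* was *Ralgps2* (r = 0.97, and 0.94 without those controls), and the gene most like *Daam2* was *Npnt* (0.95 and 0.88). For *Dvl1* it was *Tecpr1* (0.88), for *Dvl2* *Plekhm2* (0.89), for *Intu* *Kif16b* (0.88), for *Fuz* *Sirt6* (0.85), and for *Wdpcp* a gene whose symbol the table holds as a date (0.88). Between members, *Dvl3* and *Daam2* had an r of 0.75 over the 18 libraries and -0.14 without the *Vangl1/2* controls. *Intu* and *Fuz* had an r of -0.65 and -0.75, the most negative pair in both sets of libraries.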

How the data were processed

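RNA from whole embryonic lungs was sequenced by the authors. Per the submitters' processing notes, Trim Galore, HISAT2, featureCounts and DESeq2 were used with build mm10, and versions are not given in the sources used here. Each of the 3 deposited tables holds 23420 genes, and the signal deposited for each library is a gene count after the authors scaled it by the size factor of its library, set separately in each table. The deposited mean, log2 fold change and p-value columns hold the authors' own comparison and were not used. Every per-library column was assigned to a sample.

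Reads were recovered by undoing the size factors, and 100% of values came out whole (within 0.01). The main test was limma 3.58.1 (R 4.3.3) with a mean-variance trend on log2(value + 1), for genes reaching 10 normalized counts in 3 or more libraries, with Benjamini-Hochberg adjustment over all genes tested. Fold changes are on this scale, which understates low genes. Differences of effects came from 1 fit of 6 group means over 18 libraries. edgeR 4.0.16 and DESeq2 1.42.0 were run on the recovered reads as alternatives. Lengths came from GENCODE M21, and a lowess curve of span 0.3 was subtracted per library to remove the length trend. The scripts were tested on simulated data. Named genes were the 8 members, the targeted genes, the gene of lowest unadjusted p in each pathway list and experiment (1 list is not reported here), and the gene of most similar pattern. The members and lists were chosen with earlier results of these data known. The smallest p of an exact permutation test of 3 against 3 libraries is 0.1, so none was used. Figures were drawn with Python 3.11.15.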

Additional observations from a re-analysis of the deposited data

How the results depend on the processing

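With 3 libraries in a group, small differences were not detectable, and the widest 95% intervals of the 8 genes were those of *Dvl3* (0.06 to 0.89) and *Daam2* (0.08 to 0.89) in the *Vangl1/2* experiment, on the log2 scale. The main limit is the *Vangl1/2* controls. The number of the 8 genes that passed was 0 in all 3 experiments and all 3 contrasts. It became 2 in the *Vangl1/2* experiment with all 18 libraries in 1 fit, 3 with the transcript length trend removed and control replicate 2 left out, and 1 with merged exon lengths in that fit. Leaving out 1 library gave 0 to 4 in that experiment, and 0 to 3 in each contrast that uses it. Alternatives with merged exons, with both choices, or without control replicates 1 and 3 were added after seeing the data.

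Over all genes, 1, 2 and 0 passed with *Vangl1/2*, Dermo1-Cre and Sox9-Cre, in that order. DESeq2 gave 20, 100 and 9. The fit with no mean-variance trend gave 0, 0 and 0, and the fit of all 18 libraries 3233, 0 and 0. Removing the transcript length trend together with control replicate 2 gave 1542, and with merged exons 3749. Leaving out 1 library gave 0 to 6183, 0 to 54 and 0 to 13. For the contrasts of *Vangl1/2* with Dermo1-Cre, *Vangl1/2* with Sox9-Cre and Dermo1-Cre with Sox9-Cre, 2, 2 and 0 genes passed, and 8, 41 and 4 with DESeq2.

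Whether replicate numbers pair the libraries could not be settled from 3 libraries in a group. Deviations of same-numbered libraries from their group means correlated at 0.303, 0.049 and 0.013 in the *Vangl1/2* experiment. They correlated at 0.073, -0.073 and -0.223 in the Dermo1-Cre experiment and at 0.053, 0.132 and -0.120 in the Sox9-Cre experiment. With the replicate block 0, 16 and 0 genes passed, and 1, 6 and 1 with the length trend removed as well. The block changed the call of 0 of the 8 genes.

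Signs turned for these log2 fold changes, where differences of effects were followed over every alternative for *Dvl3*, *Daam1* and *Daam2* and otherwise with the transcript length trend removed. In the *Vangl1/2* experiment, *Intu* was -0.055 with the transcript length trend removed, with or without the block, and -0.017 without control 2 as well, and leaving out libraries gave -0.068 (without controls 1 and 3) to 0.42 (without control 2). *Fuz* was 0.14 with the length trend removed, with or without the block, 0.17 without control 2 as well, and leaving out libraries gave -0.15 to 0.046 (without controls 1 and 3). For *Wdpcp* it gave -0.26 to 0.034 (without controls 1 and 3) and for *Dvl2* -0.090 to 0.0021. In the Sox9-Cre experiment it gave -0.027 to 0.15 for *Dvl1*, -0.035 to 0.049 for *Dvl2*, -0.021 to 0.042 for *Dvl3*, -0.13 to 0.12 for *Intu*, -0.050 to 0.22 for *Fuz* and -0.0049 to 0.15 for *Wdpcp*, and *Dvl3* was -0.00060 with the merged exon trend removed. With the length trend removed, the difference of effects between *Vangl1/2* and Dermo1-Cre turned for *Daam1* (-0.0054), *Intu* (0.11 to -0.16), *Dvl2* (0.044 to -0.13) and *Wdpcp* (-0.045 to 0.00080), and that with Sox9-Cre turned for *Intu* (0.28 to -0.033) and *Fuz* (-0.17 to 0.057). It was -0.017 to 0.12 for *Daam2* between Dermo1-Cre and Sox9-Cre when 1 library was left out. The causes were not tested.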
